A study of Mus musculus with 58 samples.

Results

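CC chemokine ligands are small secreted proteins that attract leukocytes through G protein-coupled receptors. The 10 ligand genes described here, Ccl2, Ccl3, Ccl4, Ccl5, Ccl6, Ccl7, Ccl8, Ccl9, Ccl12 and Ccl22, were chosen by name, and each symbol matched 1 of the 47643 Ensembl genes in the count tables. Their transcripts were followed in 34 mouse microglia libraries that fall into 8 groups and 4 comparisons. The 24 cortex samples among the 58 of the series were not analysed here.

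Wild-type primary microglia, shaken off mixed glial cultures of newborn pups, received vehicle (n = 4) or 2 µg/ml of full-length tau fibrils for 24 h (n = 4). Adult microglia came from male mice of about 11 months, either PS19 mice carrying the human tau transgene P301S (n = 4) or non-transgenic NTG mice (n = 4), and were enriched with CD11b beads after enzymatic digestion of the perfused brain. In the PS19 line the transgene is driven by the prion promoter, which is most active in neurons of the brain. The IkbkbCA cultures (Cx3cr1 CreERT2/+ with IkbkbCA F/F, n = 5) expressed a constitutively active IKKβ from the Rosa26 locus, and their IkbkbWT controls (Cx3cr1 +/+ with IkbkbCA F/F, n = 5) had no Cre. The Ikbkb-/- cultures (Cx3cr1 CreERT2/+ with Ikbkb F/F, n = 4) lacked IKKβ, and their Ikbkb+/+ controls (Cx3cr1 +/+ with Ikbkb F/F, n = 4) again had no Cre. All 4 of these groups received 4-hydroxytamoxifen. Cre, the loss of 1 Cx3cr1 allele and the change in Ikbkb therefore came together in both mutant groups and cannot be told apart.

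The libraries held 1672052 to 8349128 reads counted on genes, and 3 reads corresponded to 0.340 to 1.71 CPM, the standard measure of a count relative to its library total. The labels do not say which libraries came from separate cultures or litters, so the tests measure the spread between these libraries, which may be technical in part. Reads of Ikbkb itself were at 18.7 to 24.7 CPM in Ikbkb-/- against 45.6 to 55.2 CPM in Ikbkb+/+ libraries (log2 fold change -1.20, edgeR quasi-likelihood test, FDR = 6.3e-07), while IkbkbCA and IkbkbWT overlapped (45.0 to 60.4 and 40.4 to 58.8 CPM, FDR = 0.405). Whether the 3′ reads of Ikbkb lie inside the deleted part or inside the inserted cDNA is not given in the sources used here, so these values check the labels only in part. Cx3cr1 was lower in both Cre-carrying groups, at 1126 to 1316 CPM in IkbkbCA and 957 to 1161 CPM in Ikbkb-/- libraries against 1500 to 2014 and 1825 to 2857 CPM in their controls. All 10 microglia markers had reads in each group, and their summed level was 4623 to 6236 CPM in vehicle libraries and at least 10463 CPM in all other groups. IkbkbCA replicate 3 stood apart from the other 4 libraries of its group in Ccl3, Ccl4, Ccl9 and Ccl12, so the value of each tested ligand without it is given as well. Within both IkbkbCA and IkbkbWT, replicates 4 and 5 also differed from replicates 1 to 3, with neuron markers summed at 91.0 to 113 CPM against 4.49 to 20.8 CPM and fibroblast markers at 15.9 to 26.9 CPM against 0 to 1.89 CPM. The labels give no batch for these libraries. Beside the pooled values, the IkbkbCA comparison was therefore also run within the libraries high in neuron markers (2 IkbkbCA and 2 IkbkbWT) and low in them (3 and 3). It was run with this split as a covariate as well, and the split was chosen after seeing the data. An FDR within 2 against 2 libraries rests on the spread of very few libraries. A smaller FDR there is not stronger evidence than that with all libraries.

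By textbook grouping the 10 ligands differ in the receptors they use. Ccl2, Ccl7 and Ccl12 are ligands of CCR2, the receptor that brings inflammatory monocytes into tissue, and Ccl8 is encoded beside them. Ccl3, Ccl4 and Ccl5 attract T cells, monocytes and macrophages, and Ccl3 and Ccl5 bind CCR1. Ccl6 and Ccl9 are CCR1 ligands found in rodents, with a longer N terminus that proteases trim. Ccl22 binds CCR4 on regulatory and helper T cells and is made mainly by dendritic cells and alternatively activated macrophages. Microglia are a main source of Ccl3 and Ccl4 in the brain. Several of these genes, Ccl2 and Ccl5 among them, have known NF-κB sites, and Ccl5 and Ccl12 are also induced by interferon.

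In GRCm38, 9 of the 10 genes lie on chromosome 11 in a pair of clusters. Ccl2 (ENSMUSG00000035385, chr11:82035571-82037453), Ccl7 (ENSMUSG00000035373, chr11:82045712-82047525), Ccl12 (ENSMUSG00000035352, chr11:82101845-82103400) and Ccl8 (ENSMUSG00000009185, chr11:82115185-82116799) follow one another on the plus strand. Ccl5 (ENSMUSG00000035042, chr11:83525778-83530518), Ccl9 (ENSMUSG00000019122, chr11:83572919-83578636), Ccl6 (ENSMUSG00000018927, chr11:83587882-83593087) and Ccl3 (ENSMUSG00000000982, chr11:83647844-83649355) lie on the minus strand, and Ccl4 (ENSMUSG00000018930, chr11:83662584-83664683) lies beside them on the plus strand. Ccl22 (ENSMUSG00000031779, chr8:94745590-94751699, plus strand) stands alone. On the opposite strand Gm17268 overlaps Ccl2 and E230016K23Rik overlaps Ccl6, and since it is not stated that the counting used strand, their reads may not be fully separate.

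Promoter windows of 250 bases before and 50 after the transcription start were at hand for 6 of the genes, Ccl3, Ccl6, Ccl8, Ccl9, Ccl12 and Ccl22, from RefSeq on GRCm38.p6. The other 4 are Ccl2, Ccl4, Ccl5 and Ccl7. Of the 15 pairs of windows, the neighbours Ccl8 and Ccl12 were the most alike, with 58.0% identical bases over an alignment of 319 positions, against 46.5% to 52.5% in the other pairs. Their windows are shown for this reason, and that of Ccl9 because it was the 1 window with a match to the κB consensus. Capitals mark matches to TATAAA on the gene's own strand, and in Ccl9 also the κB match.
Ccl12, chr11:82101595-82101894, plus strand: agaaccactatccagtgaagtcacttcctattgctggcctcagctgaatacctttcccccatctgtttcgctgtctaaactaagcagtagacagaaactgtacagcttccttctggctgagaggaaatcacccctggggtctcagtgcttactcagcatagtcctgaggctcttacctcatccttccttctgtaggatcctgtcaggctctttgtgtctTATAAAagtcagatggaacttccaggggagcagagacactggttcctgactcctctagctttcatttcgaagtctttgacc
Ccl8, chr11:82114935-82115234, plus strand: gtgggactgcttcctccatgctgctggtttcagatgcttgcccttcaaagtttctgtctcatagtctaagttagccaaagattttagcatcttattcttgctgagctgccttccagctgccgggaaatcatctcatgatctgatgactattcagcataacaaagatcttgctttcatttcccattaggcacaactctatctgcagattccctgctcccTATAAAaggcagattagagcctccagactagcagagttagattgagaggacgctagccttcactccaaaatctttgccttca
Ccl9, chr11:83578587-83578886, minus strand: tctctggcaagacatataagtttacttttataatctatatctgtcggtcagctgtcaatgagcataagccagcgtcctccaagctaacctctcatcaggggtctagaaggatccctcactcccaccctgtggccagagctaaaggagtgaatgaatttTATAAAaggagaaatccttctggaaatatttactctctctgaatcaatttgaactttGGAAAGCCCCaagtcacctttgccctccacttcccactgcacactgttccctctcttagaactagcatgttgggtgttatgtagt

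TATAAA stood 31 to 26 bases before the start in Ccl12 and 32 to 27 bases before it in Ccl8, nearly the same place. In Ccl9 it stood 92 to 87 bases before the start. These 3 were the windows of the 6 with TATAAA, which 8.32% of 32851 mouse promoter windows of this length hold. The κB match in Ccl9, 35 to 26 bases before the start, read GGAAAGCCCC, and 11.2% of all windows hold a κB match on either strand. The AP-1 motif TGANTCA was found in the Ccl9 window alone of the 6 (7.81% of all windows), the core GAGGAA of PU.1, a factor of myeloid cells, in 3 of 6 (28.3%), and the interferon-stimulated response element, a pair of TTTC runs with any 2 bases between them, in 0 of 6 (3.44%). These 3 motifs were searched on both strands and did not overlap the capitals. A match is a run of letters and not a shown binding site, and a window without one says nothing of the factor.

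The ligands covered a wide range of levels. Because QuantSeq sequences each mRNA once, next to its poly(A) tail, counts do not grow with gene length, and levels are given in CPM with TMM scaling over all 34 libraries. Summed over the 10 genes, vehicle-treated cultures had 207 to 273 CPM, the lowest of all groups, and tau-stimulated cultures had 3190 to 3868 CPM. NTG microglia had 1378 to 2601 CPM and PS19 microglia 3121 to 5393 CPM. In the Ikbkb experiments the sums were 840 to 944 CPM in IkbkbWT, 725 to 855 CPM in IkbkbCA, 812 to 1253 CPM in Ikbkb+/+ and 668 to 886 CPM in Ikbkb-/- libraries, each mutant overlapping its control. The 4 experiments were separate preparations, so differences in level between them are described and not tested.

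**Figure D1:**
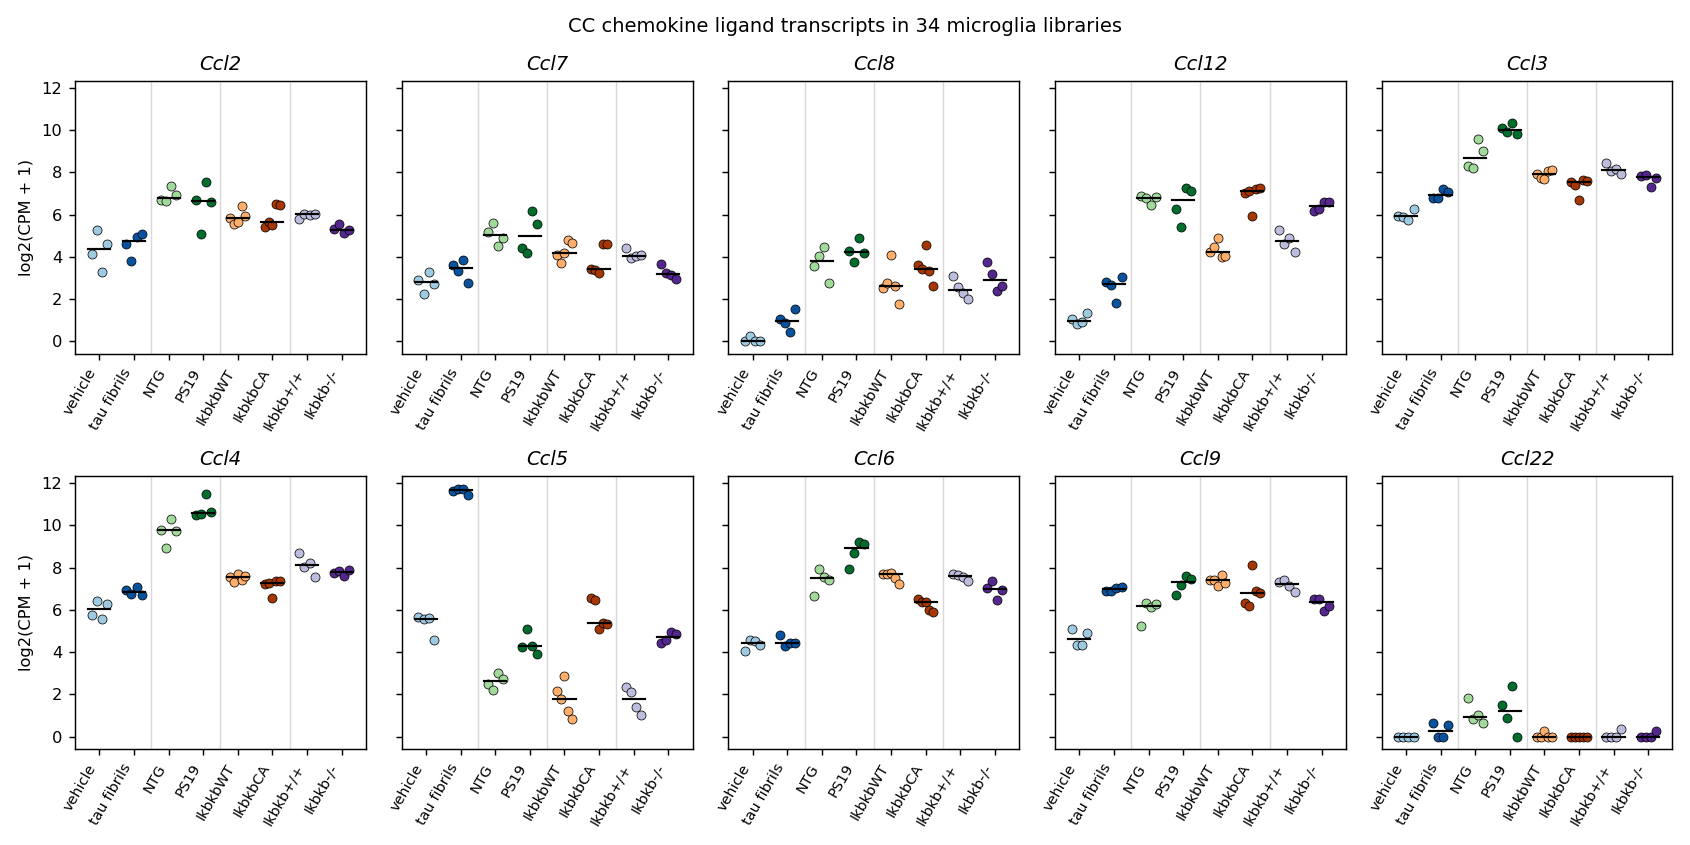
Level of each CC ligand gene in each of the 34 libraries, as log2(CPM + 1) on the vertical axis, by group on the horizontal axis. Each point is a library and each bar a group median, and Ccl5 in the 4 tau-stimulated libraries (2752 to 3427 CPM) lies above Ccl5 in every other library.

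The make-up of this sum differed as well. With vehicle, Ccl4 and Ccl3 made up 26.6% and 25.6% of it on average and Ccl5 17.5%. With tau fibrils, Ccl5 alone made up 86.3% to 90.0%. In adult microglia Ccl4 was the main ligand (46.1% on average in NTG, 47.8% in PS19), followed by Ccl3 (24.5% and 28.8%). Ccl6 and Ccl9 together held a larger part in the control cultures of the Ikbkb experiments, where Ccl6 was 21.5% and Ccl9 18.6% of the sum in IkbkbWT and 18.7% and 14.3% in Ikbkb+/+. Ccl12 made up 2.21% in IkbkbWT and 15.6% in IkbkbCA, and 2.57% in Ikbkb+/+ and 10.9% in Ikbkb-/- libraries.

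**Figure D2:**
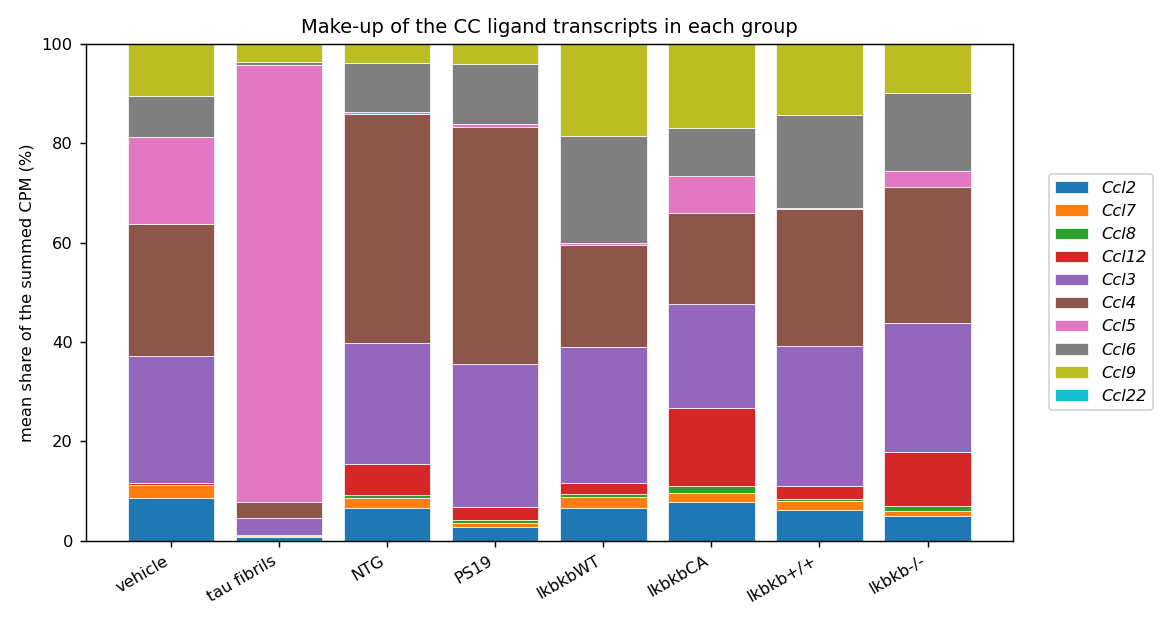
Mean share of each gene in the summed CPM of the 10 CC ligands, in percent on the vertical axis, for each group on the horizontal axis. Ccl5 fills 88.0% of the tau-stimulated bar, and Ccl12 takes a taller band in IkbkbCA (15.6%) and Ikbkb-/- (10.9%) than in their controls.

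Tau fibrils raised 4 of the 7 ligands that had enough reads for the test, Ccl3, Ccl4, Ccl5 and Ccl9, and lowered 0 (FDR under 0.05 in edgeR), while 14.5% of all 10408 genes tested were higher. In PS19 microglia 0 of 9 ligands passed this test, where 0.0707% of 11323 genes, or 8, were higher and 0 lower. At an unadjusted p under 0.05 in the same test there were 5 ligands, all higher, and 977 of the 11323 genes in either direction. IkbkbCA microglia had 2 of 9 ligands higher, Ccl5 and Ccl12, and 2 lower, Ccl3 and Ccl6, against 7.31% of genes higher and 7.16% lower. Ikbkb-/- microglia had the same 2 genes higher, Ccl5 and Ccl12, and 5 of 9 lower, Ccl2, Ccl3, Ccl6, Ccl7 and Ccl9, against 7.64% of genes higher and 6.96% lower. The median log2 fold change of the tested ligands was 0.86, 1.01, -0.34 and -0.45 in these comparisons in turn, and that of all genes tested -0.01, 0.00, -0.05 and 0.00. Scaling by total counts shifted the median of all genes to -0.16 with tau fibrils and to -0.11 in IkbkbCA, and the calls over all genes from 1506 higher and 1602 lower to 1057 and 2254, and from 855 and 837 to 753 and 1252. Under that scaling the same numbers of ligands were called in each direction in both comparisons.

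**Figure D3:**
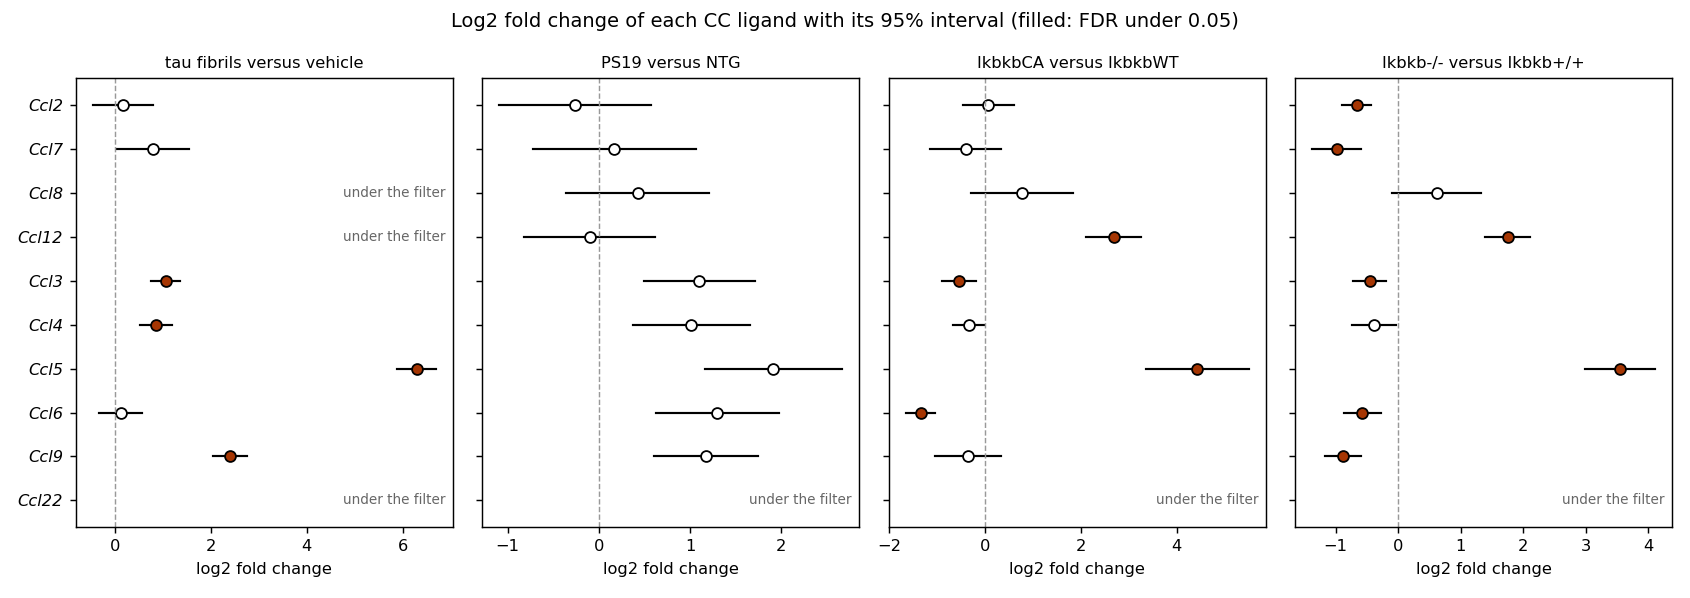
Log2 fold change of each CC ligand in the 4 comparisons, on the horizontal axis, with its 95% interval as a line. Filled points passed an FDR under 0.05, each panel has its own scale, and the 9 tested genes of PS19 microglia are all open although Ccl3, Ccl4, Ccl5, Ccl6 and Ccl9 lie at 1.01 to 1.91.

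Ccl5, also known as RANTES, attracts T cells and monocytes. It was at 3163, 3427, 3390 and 2752 CPM in the 4 tau-stimulated cultures and at 49.5, 46.1, 47.9 and 22.8 CPM with vehicle. The groups were far apart, with a log2 fold change of 6.29 (SE 0.20, 95% interval 5.89 to 6.69, FDR = 3.5e-19), or 78.2-fold. In IkbkbCA libraries it was at 94.7, 87.3, 32.8, 41.1 and 39.7 CPM, and in IkbkbWT libraries at 3.49, 2.45, 6.24, 1.31 and 0.793 CPM, again without overlap (log2 fold change 4.42, SE 0.49, FDR = 1.1e-04). Replicates 1 and 2 of IkbkbCA were more than 2 times as high as the other 3. The log2 fold change was 4.6 without IkbkbCA replicate 3 (FDR = 1.0e-04), 5.33 within the libraries high in neuron markers (FDR = 1.8e-17) and 4.13 within those low in them (FDR = 0.00575). Ccl5 was higher in Ikbkb-/- libraries as well, at 20.7, 23, 29.9 and 28.0 CPM against 4.02, 3.35, 1.67 and 1.06 CPM in Ikbkb+/+ libraries (log2 fold change 3.55, SE 0.27, FDR = 2.0e-08). The control cultures of both Ikbkb experiments thus held little Ccl5, at 7 to 33 reads per library in IkbkbWT and 8 to 16 in Ikbkb+/+.

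In adult microglia Ccl5 was also low. It was at 18.1, 33.7, 18.8 and 13.9 CPM in PS19 and 4.66, 3.58, 6.94 and 5.71 CPM in NTG mice, so that the PS19 libraries all exceeded those of NTG mice. The log2 fold change of 1.91 (SE 0.35, 95% interval 1.16 to 2.67) had an unadjusted exact permutation p = 0.0286, the smallest 4 against 4 allows, and missed the threshold over all genes in edgeR (FDR = 0.0875). Without PS19 replicate 2, the highest, it passed (log2 fold change 1.62, FDR = 0.0455).

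Ccl3 and Ccl4, the macrophage inflammatory proteins 1α and 1β, are immediate products of activated microglia and rose together with tau fibrils. Ccl3 went from 60.9, 59.1, 53.1 and 75.7 CPM with vehicle to 111, 110, 146 and 133 CPM (log2 fold change 1.06, SE 0.15, FDR = 2.9e-06). Ccl4 went from 53.3, 84.1, 47.0 and 77.7 CPM to 121, 108, 135 and 103 CPM (log2 fold change 0.86, SE 0.16, FDR = 1.6e-04). Neither gene's groups overlapped, and both changes were near 2-fold. In IkbkbCA the direction was the opposite. Ccl3 was at 184, 171, 102, 198 and 191 CPM against 246, 215, 208, 266 and 281 CPM in IkbkbWT (log2 fold change -0.54, SE 0.16, FDR = 0.0495), with every IkbkbCA library below every control. This call was at the threshold and was lost with RLE size factors (FDR = 0.0558), with TMM over all 34 libraries (0.0526), without the filter on low counts (0.0564), and on leaving out any 1 of the 10 libraries other than IkbkbCA replicate 3 (0.0513 to 0.113). Without that replicate, the lowest at 102 CPM, the log2 fold change was -0.37 (FDR = 0.0261). With the neuron marker split as a covariate Ccl3 passed (-0.54, FDR = 0.0177), as it did within the high libraries (-0.47, FDR = 8.3e-04) but not within the low ones (-0.55, FDR = 0.215). Ccl4 was at 94.1 to 166 CPM in IkbkbCA and 158 to 208 CPM in IkbkbWT and did not pass (log2 fold change -0.34, 95% interval -0.66 to -0.02, FDR = 0.151), nor without IkbkbCA replicate 3 (-0.20, FDR = 0.192) or within the high (-0.11) or low libraries (-0.48).

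In Ikbkb-/- microglia Ccl3 fell, from 348, 268, 287 and 244 CPM in controls to 229, 237, 156 and 209 CPM (log2 fold change -0.45, SE 0.13, FDR = 0.0218). The call was lost without Ikbkb-/- replicate 3 (FDR = 0.0732), without Ikbkb+/+ replicate 1 (0.0725) and without Ikbkb+/+ replicate 3 (0.0552). Ccl4 was at 193 to 234 CPM against 187 to 414 CPM, with overlap, and did not pass (log2 fold change -0.39, 95% interval -0.73 to -0.04, FDR = 0.134). It passed without Ikbkb+/+ replicate 4, the lowest control (log2 fold change -0.56, FDR = 0.00474), and without the filter on low counts (FDR = 3.3e-04). Without Ikbkb+/+ replicate 1, the highest control at 414 CPM, it was -0.16 (FDR = 0.463).

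Adult microglia had the highest levels of both genes. Ccl3 was at 1112, 958, 1282 and 889 CPM in PS19 and 319, 295, 775 and 511 CPM in NTG mice, and Ccl4 at 1422, 1489, 2867 and 1583 CPM and 874, 486, 1270 and 865 CPM. For both genes, as also for Ccl5 and Ccl9, the PS19 libraries all exceeded the NTG libraries, which makes 4 of the 9 tested ligands, against 4.54% of all genes tested. The log2 fold changes were 1.10 for Ccl3 (SE 0.28, FDR = 0.260) and 1.01 for Ccl4 (SE 0.30, FDR = 0.356). These calls depended on the method, since DESeq2 called Ccl3, Ccl5, Ccl6 and Ccl9 higher (FDR = 0.0205, 5.8e-04, 0.00879 and 0.00573), where 0.698% of genes were, and edgeR without the filter on low counts called these and Ccl4 (FDR = 9.6e-06 to 0.00571), where 0.561% were. Limma-voom called 0 of the 9.

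Within NTG, Ccl3 was higher in replicates 3 and 4, the mice of 10.98 months, the age of all 4 PS19 mice, than in replicates 1 and 2, the mice of 11.18 months. With age as a covariate the log2 fold changes were 0.67 for Ccl3, 0.73 for Ccl4, 1.66 for Ccl5, 1.29 for Ccl6 and 1.04 for Ccl9. As without it, 0 ligands passed, and of all 11323 genes 0 did. Age varied only among the NTG mice, so the PS19 difference in this fit rests on NTG replicates 3 and 4 as controls. Immediate early genes rise during warm digestion of tissue, and the list used here also holds the heat shock gene Hspa1a. This list summed to 8143 and 4902 CPM in NTG replicates 1 and 2 and to 14322 and 12253 CPM in replicates 3 and 4. It summed to 9429 to 12408 CPM in PS19 mice and to 2502 CPM or less in every culture. Granulocyte markers summed to 1214 to 1834 CPM in NTG and 345 to 2115 CPM in PS19 mice, and to 340 CPM or less in every culture. The part of either list in the levels of Ccl3, Ccl4, Ccl6 and Ccl9 was not tested.

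Among the CCR2 ligands, Ccl12 stood out in the Ikbkb experiments. Ccl12, in mice a close relative of Ccl2, was at 131, 136, 59.8, 148 and 152 CPM in IkbkbCA and 17.6, 21.4, 28.5, 14.8 and 15.5 CPM in IkbkbWT libraries (log2 fold change 2.68, SE 0.26, FDR = 5.0e-05), or 6.40-fold. It was at 70.9, 75.4, 97.3 and 95.1 CPM in Ikbkb-/- and 37.6, 23.2, 28.4 and 17.7 CPM in Ikbkb+/+ libraries (log2 fold change 1.75, SE 0.17, FDR = 6.2e-07). The groups did not overlap in either experiment, and IkbkbCA replicate 3 was the lowest of its group but above every control. Without it the log2 fold change in IkbkbCA was 2.88 (FDR = 3.9e-06), and within the libraries high and low in neuron markers it was 3.33 (FDR = 3.3e-20) and 2.27 (FDR = 0.0125).

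In the tau experiment Ccl12 had few reads, 11, 13, 7 and 15 with fibrils and 2, 4, 2 and 3 with vehicle, and stayed under the filter on low counts. Relative to the TMM-scaled library totals, the summed reads were 5.16 times as high with fibrils (95% interval 2.63 to 11.0, counting error only). All 4 fibril libraries lay above the vehicle libraries (exact two-sided permutation test of the mean CPM, p = 0.0286, the smallest possible). In adult mice Ccl12 was at 77.3, 41.2, 155 and 139 CPM in PS19 and 118, 109, 86.9 and 112 CPM in NTG, with overlap (log2 fold change -0.10, 95% interval -0.82 to 0.62).

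Ccl2, or MCP-1, the classic monocyte attractant, did not pass the test with tau fibrils, at 23.4, 12.8, 29.3 and 32.8 CPM against 16.8, 37.2, 8.71 and 23.4 CPM with vehicle (log2 fold change 0.17, 95% interval -0.45 to 0.80, FDR = 0.715). Its ranges overlapped between IkbkbCA and IkbkbWT (41.7 to 89.7 and 45.7 to 82.7 CPM, 95% interval of the log2 fold change -0.47 to 0.61). Of the 5 IkbkbCA libraries, 2 lay above all controls and 2 below all of them. The log2 fold change of Ccl2 there was 0.20 without IkbkbCA replicate 3 (FDR = 0.685), 0.35 within the libraries high in neuron markers (FDR = 0.0591) and -0.16 within the low ones (FDR = 0.552). In Ikbkb-/- libraries it was at 38.7, 46.1, 33.6 and 37.4 CPM, below all Ikbkb+/+ libraries at 55.2, 64.4, 62.9 and 64.8 CPM (log2 fold change -0.66, SE 0.11, FDR = 2.8e-04). Ccl7, or MCP-3, fell with it, from 20.1, 14.2, 15.3 and 16.2 CPM to 11.5, 8.38, 7.70 and 6.78 CPM (log2 fold change -0.98, SE 0.19, FDR = 0.00126). Ccl7 was at 5.79 to 13.5 CPM with tau fibrils and 3.74 to 8.71 CPM with vehicle, on 11 to 37 reads per library, and did not pass (log2 fold change 0.80, 95% interval 0.06 to 1.54, FDR = 0.100). In IkbkbCA and IkbkbWT alike, replicates 4 and 5 had the highest Ccl7, at 23.2 and 23.7 CPM and at 27.1 and 24.5 CPM, while the other 6 libraries lay at 8.34 to 17.2 CPM. These were the libraries high in neuron and fibroblast markers, and the part of those cells in Ccl7 was not tested. Ccl7 did not pass with all libraries (log2 fold change -0.40, FDR = 0.516), without IkbkbCA replicate 3 (-0.22, FDR = 0.745), within the high (-0.11, FDR = 0.728) or low libraries (-0.73, FDR = 0.110), or with the split as a covariate (-0.48, FDR = 0.0509). In adult microglia both genes varied widely and overlapped, Ccl2 at 32.5 to 189 CPM in PS19 and 97.9 to 164 CPM in NTG, Ccl7 at 17 to 70.8 and 21.7 to 47.0 CPM.

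Ccl8, or MCP-2, encoded next to Ccl12, was called in 0 of the 3 comparisons in which it was tested. Its log2 fold change was 0.77 in IkbkbCA (95% interval -0.30 to 1.84, FDR = 0.357), 0.62 in Ikbkb-/- (95% interval -0.10 to 1.33, FDR = 0.262) and 0.43 in PS19 microglia (95% interval -0.36 to 1.21). Replicate 3 was the highest of its group in both IkbkbCA (22.6 CPM against 5.24 to 11.4 in the others) and IkbkbWT (16.3 CPM against 2.38 to 5.71). Oligodendrocyte markers were highest in the same libraries, summed at 1695 and 4673 CPM against 292 to 662 CPM in the other 8, and their part in Ccl8 was not tested. Without IkbkbWT replicate 3 the log2 fold change was 1.39 (FDR = 0.0465). Without IkbkbCA replicate 3 it was 0.40 (FDR = 0.661), and without both 1.02 (FDR = 0.0641). Within the libraries high in neuron markers, which leave out replicate 3 of both groups, it passed (1.09, FDR = 0.0297), and within the low ones it did not (0.70, FDR = 0.567). With tau fibrils Ccl8 had 2, 2, 1 and 4 reads and with vehicle 0, 1, 0 and 0, both near the limit that 3 reads set, so no fold is given.

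Ccl9 and Ccl6, the CCR1 ligands with an extended N terminus, separated in the tau experiment. Ccl9 was at 118, 116, 131 and 134 CPM with fibrils against 32.6, 19.3, 19.2 and 29.4 CPM with vehicle (log2 fold change 2.40, SE 0.17, FDR = 1.2e-11), a 5.27-fold rise second only to Ccl5 among the tested ligands. Ccl6, its neighbour on the chromosome, was at 27.3, 18.5, 20.5 and 20.3 CPM against 15.8, 23, 21.8 and 19.3 CPM, with overlap (log2 fold change 0.13, 95% interval -0.32 to 0.58). Its sign turned under total-count scaling (-0.02).

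In IkbkbCA microglia it was Ccl6 that changed. It was at 91.8, 82.3, 83.2, 63.2 and 58.1 CPM, far below the 208, 207, 213, 179 and 147 CPM of IkbkbWT (log2 fold change -1.34, SE 0.14, FDR = 6.9e-05). Ccl9 was at 79.3, 70.9, 277, 116 and 110 CPM against 170, 172, 137, 198 and 153 CPM, so that 4 IkbkbCA libraries lay below all controls and replicate 3 above all of them. With all libraries Ccl9 did not pass (log2 fold change -0.35, 95% interval -1.05 to 0.34, FDR = 0.540). Without replicate 3 it did (log2 fold change -0.80, FDR = 0.00679), and Ccl6 stayed at -1.36 (FDR = 2.3e-04). Within the libraries high in neuron markers, which leave out replicate 3, Ccl9 was at -0.60 (FDR = 1.9e-04) and Ccl6 at -1.39 (FDR = 2.2e-11). The low ones include replicate 3, and there Ccl9 was at -0.16 (FDR = 0.905) and Ccl6 at -1.29 (FDR = 0.00120).

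Ikbkb-/- microglia had less of both. Ccl9 was at 91.1, 90.7, 61.2 and 71.5 CPM against 160, 167, 138 and 115 CPM (log2 fold change -0.88, SE 0.14, FDR = 1.7e-04), without overlap. Ccl6 was at 130, 166, 86.1 and 122 CPM against 207, 202, 187 and 163 CPM (log2 fold change -0.57, SE 0.14, FDR = 0.0105), where 1 mutant library reached the controls. The 5 decreases in Ikbkb-/- microglia rested on the spread within this experiment. When the 18 libraries of both Ikbkb experiments shared 1 estimate of the spread, the fold changes of Ccl2, Ccl3, Ccl6, Ccl7 and Ccl9 stayed at -0.46 to -0.97 but had an FDR of 0.0529 to 0.144, and Ccl5 and Ccl12 were the 2 called.

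In adult mice Ccl6 was at 242, 419, 584 and 562 CPM in PS19 and 100, 244, 186 and 171 CPM in NTG, where 3 of 4 PS19 libraries lay above all controls (log2 fold change 1.30, SE 0.31, FDR = 0.202). Ccl9 was at 105, 142, 193 and 175 CPM against 36.8, 79.2, 68.2 and 75.9 CPM (log2 fold change 1.18, SE 0.26, FDR = 0.180). Both missed the threshold, and both are among the genes that DESeq2 called.

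Ccl22 was near absent from cultured microglia, with 0 to 2 reads in each of the 26 culture libraries. In vehicle and IkbkbCA libraries it had 0 reads throughout, which allows up to 0.591 to 1.63 CPM and 0.420 to 0.748 CPM per library. Adult microglia had 1 to 5 reads in NTG and 10, 3, 30 and 0 reads in PS19 mice, or 0.571 to 2.59 CPM and 0 to 4.31 CPM, and the groups overlapped (exact two-sided permutation p = 0.686). Dendritic cell markers summed to 28.0 to 61.7 CPM in NTG and 12.4 to 40.2 CPM in PS19 mice and to 17.6 CPM or less in every culture, and their part in Ccl22 was not tested.

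Across all 8 groups the order of levels differed by gene. Ccl5 was highest with tau fibrils, and no other group came near. IkbkbCA, vehicle, Ikbkb-/- and PS19 followed, each overlapping the next, and then, without overlap, NTG, with IkbkbWT and Ikbkb+/+ at the end. Ccl3 and Ccl4 were highest in PS19 and then NTG and lowest with vehicle, and tau fibrils left both below the means of all 4 groups of the Ikbkb experiments. Ccl12 was highest in IkbkbCA, NTG, PS19 and Ikbkb-/-, neighbours in this order that overlapped, and lowest with vehicle (0.787 to 1.52 CPM). Ccl6 had its highest mean in PS19 (452 CPM), overlapping NTG, and its lowest with tau fibrils and vehicle, at 21.6 and 20.0 CPM. Ccl9 had its highest mean in IkbkbWT (166 CPM). PS19, Ikbkb+/+, IkbkbCA and tau fibrils came next in this order, each overlapping the group just before it. Ccl2, Ccl7 and Ccl8 were highest in the adult groups, which overlapped each other.

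The effects were then compared with each other. Of the 9 ligands tested, 4 differed between the tau-fibril and the IkbkbCA effect, where 9.42% of 12841 genes did. The difference of log2 fold changes was 1.51 for Ccl3 (SE 0.23, FDR = 2.6e-04), 1.14 for Ccl4 (SE 0.24, FDR = 0.00452), 1.39 for Ccl6 (SE 0.24, FDR = 7.3e-04) and 2.67 for Ccl9 (SE 0.43, FDR = 3.8e-04), all toward a higher value with tau fibrils. For Ccl5 the difference of 1.79 (95% interval 0.60 to 2.98) missed the threshold (FDR = 0.0533). Both experiments raised it, and it passed with total-count scaling (FDR = 0.0451), TMM over all 34 libraries (0.0492) and no filter (0.00137). The differences of Ccl8 and Ccl12 did not pass and rest on 0 to 4 reads in the vehicle libraries. Between the IkbkbCA and Ikbkb-/- effects 0 of 9 ligands differed, against 3.12% of 12352 genes (edgeR quasi-likelihood test), and Ccl2, Ccl6 and Ccl12 had an unadjusted p under 0.05. The nearest were Ccl6, 0.75 lower on the log2 scale in IkbkbCA (95% interval -1.24 to -0.26, FDR = 0.0978), and Ccl12, 0.97 higher (95% interval 0.22 to 1.73, FDR = 0.180). Without IkbkbCA replicate 3 Ccl12 passed (1.15, FDR = 0.0265), and without Ikbkb-/- replicate 3 Ccl6 did (-0.91, FDR = 0.0223). The intervals for Ccl3 (-0.56 to 0.43) and Ccl4 (-0.47 to 0.60) leave room for differences of up to about 0.6 in either direction.

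**Figure D4:**
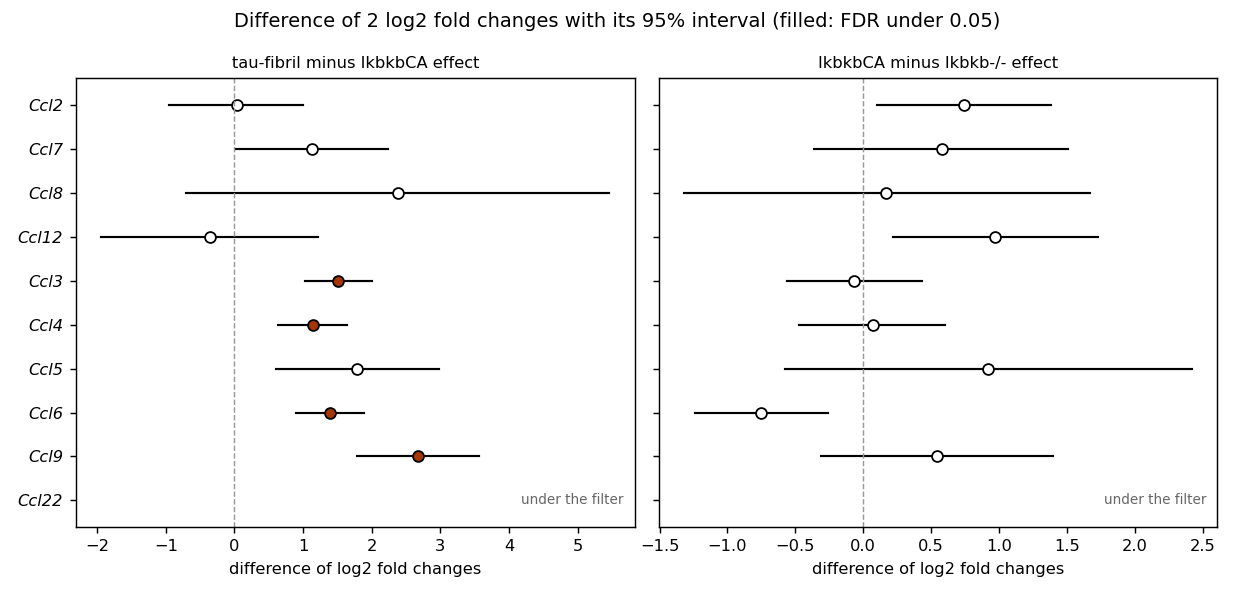
Difference of 2 log2 fold changes for each CC ligand on the horizontal axis, with its 95% interval as a line, for the tau-fibril minus the IkbkbCA effect (left) and the IkbkbCA minus the Ikbkb-/- effect (right). Filled points passed an FDR under 0.05, which holds for Ccl3, Ccl4, Ccl6 and Ccl9 on the left and for 0 genes on the right.

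Receptors and other ligands of the family were measured in few cases. Of 15 CC chemokine receptor genes, 2 to 6 had enough reads. Ccr1, a receptor of Ccl3, Ccl5, Ccl6 and Ccl9, fell from a mean of 53.1 to 5.91 CPM in IkbkbCA (log2 fold change -3.18, SE 0.20, FDR = 3.1e-06) and from 37.0 to 11.2 CPM in Ikbkb-/- (-1.64, SE 0.22, FDR = 4.5e-05). The decoy-like receptor Ccrl2 rose with tau fibrils (1.13, FDR = 0.0103) and in IkbkbCA (1.56, FDR = 2.9e-05) and fell in Ikbkb-/- (-1.23, FDR = 0.0135). Among 13 other CC ligands 1 or 2 were tested per comparison, and Ccl24, an eotaxin of alternatively activated macrophages, fell from 34.7 to 4.71 CPM in IkbkbCA (-2.87, FDR = 5.9e-05) and from 19.1 to 3.46 CPM in Ikbkb-/- (-2.51, FDR = 8.5e-07). In PS19 microglia 0 genes of either list passed.

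NF-κB itself is a family of transcription factors held in the cytoplasm by IκB proteins until IKKβ, the product of Ikbkb, marks these for degradation. Of 16 subunits, inhibitors and feedback genes of this pathway, all tested, 12 were higher with tau fibrils (median log2 fold change 1.07), led by Bcl3 (2.82), Nfkb2 (2.30) and Tnfaip3 (2.22). In IkbkbCA 10 were higher (median 0.61), led by Nfkbie (2.37), Relb (1.72) and Tnip1 (1.60), and in Ikbkb-/- 6 were lower (median -0.30), led by Nfkbia (-1.60), Tnfaip3 (-1.56) and Nfkbiz (-1.21). The effects of IkbkbCA and Ikbkb-/- differed in 11 of these 16 genes. The part of this pathway in the ligands was not tested.

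Interferon response genes rose in each of the 3 culture experiments. With tau fibrils 14 of 14 were higher (median log2 fold change 4.50), with Irf7 going from 4.32 to 330 CPM, Mx1 from 0.225 to 16.6 CPM and Isg15 from 7.53 to 224 CPM. In IkbkbCA 14 of 14 were higher (median 3.28), with Irf7 going from 14.5 to 267 CPM, Oasl1 from 0.402 to 7.49 CPM and Usp18 from 3.86 to 58.3 CPM, and in Ikbkb-/- 12 of 14 (median 3.91), with Irf7 going from 11.9 to 385 CPM, Oasl1 from 0.504 to 12.1 CPM and Ifit3 from 14.9 to 359 CPM. The IkbkbCA and Ikbkb-/- effects differed in 1 of the 14. In PS19 microglia 0 of 12 tested genes passed (median 0.41). Ccl5 and Ccl12 moved with this list in both mutant groups, and its part in them was not tested.

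Genes that set the lifetime of chemokine mRNA were called in few cases. Of 7, Zfp36l1 rose with tau fibrils (log2 fold change 0.58, FDR = 0.00232) and Zfp36, which encodes the mRNA-destabilising tristetraprolin, fell in Ikbkb-/- (-0.98, FDR = 5.0e-05). Of the 11 genes in the immediate early list, 10 were lower in Ikbkb-/- (median -1.09), led by the heat shock gene Hspa1a (-2.18), Dusp1 (-1.70) and Fos (-1.21). In the same libraries Ccl2, Ccl3, Ccl6, Ccl7 and Ccl9 were lower and Ccl5 and Ccl12 higher. The part of the immediate early genes in these ligands was not tested. With tau fibrils 3 of 9 tested were higher, led by Fos (1.30) and Junb (1.23), and 2 lower, led by Egr1 (-0.66), and in IkbkbCA 2 of 11 were higher, Hspa1a (0.86) and Junb (0.63), and 1 lower, Ier2 (-0.58).

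Markers of other cells moved in several comparisons. With tau fibrils 5 of 9 tested microglia markers were higher, led by Aif1 (log2 fold change 3.14), Tmem119 (2.27) and C1qa (1.74), their sum being 10463 to 12083 CPM against 4623 to 6236 CPM with vehicle, while the neuron marker sum was 57.8 to 67.2 against 114 to 147 CPM and that of astrocyte markers 268 to 341 against 505 to 543 CPM. More microglia in the tau-stimulated cultures and more microglial RNA per cell cannot be told apart in bulk libraries, and what this added to the rises of Ccl3, Ccl4, Ccl5 and Ccl9 was not tested. Border-associated macrophage markers rose in 2 of 3 tested with fibrils, Ms4a7 (2.45) and Pf4 (0.56), and summed to 899 to 1086 CPM against 203 to 276 CPM with vehicle, without overlap, and their part in the same rises was not tested. These markers were lower in IkbkbCA, 5 of 7 tested, led by Lyve1 (-4.56), Cbr2 (-2.96) and F13a1 (-2.66), with 1 higher, Ms4a7 (0.97). They were lower in Ikbkb-/- too, 6 of 7, led by Lyve1 (-2.70), F13a1 (-2.43) and Cbr2 (-1.87), again with Ms4a7 higher (0.39). Their sum was 1394 to 1968 against 1799 to 2392 CPM and 965 to 1400 against 1947 to 2299 CPM. Ccl3 and Ccl6 were called lower in the same 2 comparisons, and the part of these cells in them was not tested. In Ikbkb-/- libraries 4 of 5 oligodendrocyte markers were higher, their sum being 475 to 554 against 259 to 366 CPM, and endothelial markers summed to 162 to 215 against 63.9 to 116 CPM, with Flt1 higher (1.16), Pecam1 lower (-2.01) and Cldn5 at 0 in all 4 mutant libraries. Neither sum overlapped between the groups, and their part in the 7 ligands called there was not tested. Granulocyte markers, of which S100a8 rose in IkbkbCA (2.52), summed to 16.1 to 81.0 against 5.74 to 10.8 CPM there, highest in replicate 3. In Ikbkb-/- they summed to 7.09 to 10.7 CPM, against 340, 81.1, 29.7 and 6.90 CPM in Ikbkb+/+ replicates 1 to 4. Astrocyte markers fell in the same order in these controls, at 207, 150, 94.6 and 49.7 CPM. Replicate 1 was the highest control in Ccl3, Ccl4, Ccl5, Ccl6, Ccl7, Ccl8 and Ccl12 but not in Ccl2, Ccl9 or Ccl22. The part of these cells in the ligands was not tested. Mpo and Elane, which define granulocyte precursors, were at 0 in both the IkbkbCA and the IkbkbWT libraries. T and NK cell markers, possible sources of Ccl5, reached at most 0.366 CPM in sum in any culture and 3.37 CPM in adult microglia, with all 6 at 0 in vehicle and 5 of 6 at 0 in tau-stimulated libraries. Monocyte markers summed to 36.2 to 46.3 CPM with tau fibrils and 59.4 to 91.5 CPM with vehicle, and Ly6c2 and Chil3 were at 0 in both.

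Finally, each ligand was set beside all 15774 genes with at least 1 CPM in 4 or more libraries, by Pearson's correlation of log2 CPM over the 34 libraries after each experiment's mean was removed. These values describe libraries that share treatments and depth and carry no p. Ccl3 and Ccl4 were each other's most similar gene (r = 0.89), followed by a gene without a symbol in the name table (0.85 and 0.81), and then by Scpep1 for Ccl3 (0.84) and Zfp36 for Ccl4 (0.71). For Ccl5 they were Shisa5, Lgals3bp and the MHC class I gene H2-K1 (0.97 each). For Ccl12 they were Dck (0.92) and the interferon-induced Ifit2 (0.90) and Isg20 (0.89), and Ccl12 and Ccl5 had r = 0.81. For Ccl8 they were Cybb, Oas2 and H2-D1 (0.69 each). Ccl9 was closest to Arrb1 (0.81), Slc12a7 (0.81) and Ddt (0.80), and Ccl6 to Vamp3 (0.80), Tspan4 (0.79) and Washc5 (0.77). Ccl2 was closest to Sdf2, Rgmb and Ost4 (0.81 each), and Ccl7 to Igf2bp2 (0.73), Slc39a10 (0.69) and Rnft1 (0.67). For the sparse Ccl22 the highest were Zfp626 (0.66), Rbm41 (0.64) and Erbb3 (0.62), which at these counts is no finding. Among the ligands themselves Ccl6 and Ccl12 had the most negative value (-0.50), and Ccl2 and Ccl7 reached 0.40.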

How the data were processed

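RNA of 34 microglia samples was sequenced as QuantSeq 3′ mRNA-Seq (FWD) libraries. The authors mapped the reads to GRCm38 with the Lexogen QuantSeq pipeline on BlueBee and deposited 1 table of raw read counts per library, with 47643 genes and 5 closing lines for reads not counted on a gene (reads outside genes were 12.4% to 38.3% of the uniquely mapped), which were left out here. The submitters' processing notes also name RSEM, while the tables hold whole numbers. Symbols came from the supplied name table (47224 identifiers matched) and positions from GENCODE M21.

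Counts were tested with edgeR 4.0.16 in R 4.3.3 (filterByExpr, TMM, quasi-likelihood F test, Benjamini-Hochberg FDR under 0.05 over all genes of a comparison), on its 2 groups or, for differences of effects, 4. Standard errors came from the fold change and its F. Members under the filter had an exact two-sided permutation test of CPM. DESeq2 1.42.0, limma 3.58.1 (voom), other scalings, no filter, age, leaving out libraries and, for IkbkbCA, a split of the libraries at a neuron marker sum of 50 CPM were alternatives. The procedure was tested on simulated data, and 0 of 56 within-group library pairs were identical. Replicate numbers were given in accession order and were not used to pair samples.

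The members, gene lists and tests were chosen with earlier results of these data known. All members were described in all groups. Of other lists, up to 3 called genes with the largest fold change were named per comparison, and Ikbkb and Cx3cr1. Likeness used log2 CPM with a prior count of 2. Intervals from counts cover counting error only. Depth was 1672052 to 8349128 counts per library. The result of 1 receptor gene is not reported here.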

Additional observations from a re-analysis of the deposited data

Results flagged for a closer look

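Of 78 pairs of ligand and group, 11 had a library apart from the others of its group by Dixon's criterion. Its nominal chance rate of about 1 in 20 cannot be set against this count. A single library with reads among libraries at 0 always meets the criterion, and the pairs are not independent. IkbkbCA replicate 3 accounted for 4, with Ccl3 at 102 CPM (next 171), Ccl4 at 94.1 CPM (next 149) and Ccl12 at 59.8 CPM (next 131) on the low side and Ccl9 at 277 CPM (next 116) on the high side. Its granulocyte and oligodendrocyte marker sums were the highest of its group (81.0 and 1695 CPM). IkbkbWT replicate 3 was high in Ccl8 at 16.3 CPM (next 5.71). Ccl4 in PS19 replicate 3 was at 2867 CPM (next 1583), and Ccl5 in vehicle replicate 4 at 22.8 CPM (next 46.1). The remaining 4 were single libraries with 1 or 2 reads among libraries at 0, namely Ccl8 in vehicle replicate 2 (0.197 CPM) and Ccl22 in IkbkbWT replicate 3 (0.189 CPM), Ikbkb+/+ replicate 4 (0.266 CPM) and Ikbkb-/- replicate 4 (0.183 CPM).

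The tau-fibril and IkbkbCA effects differed, by the test of the difference itself, for Ccl3 (1.51 on the log2 scale), Ccl4 (1.14), Ccl6 (1.39) and Ccl9 (2.67). The 2 experiments were separate culture preparations with their own controls, which cannot be told apart from the treatments.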

How the results depend on the processing

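Among the alternative values of single ligands, 918 kept their direction and their side of the threshold, 21 lost and 26 gained the call, and 33 changed sign, of which none passed the threshold in either setting. The number of ligands called ranged, over other settings and then over leaving out 1 library, from 4 to 5 and 4 to 5 with tau fibrils, 3 to 6 and 3 to 5 in IkbkbCA, and 4 to 5 and 4 to 5 for the difference between those effects. In PS19 microglia the count of 0 became 5 without the filter on low counts and 4 with DESeq2, and was 0 to 1 on leaving out a library (1 without PS19 replicate 2). Over all genes the 8 calls became 166, 98, 4 (limma-voom), 0 (age as a covariate) and 0 (NTG mice of the same age), or 4 to 54 on leaving out a library. In Ikbkb-/- the 7 ligands called became 2 and the 1641 genes called 875 in 1 fit of 18 libraries, and 6 to 8 ligands were called on leaving out a library. For the difference between IkbkbCA and Ikbkb-/- effects 0 to 1 ligands were called on leaving out a library (1 without IkbkbCA replicate 3 or Ikbkb-/- replicate 3), and total-count scaling moved the 275 higher and 111 lower genes to 252 and 193. In IkbkbCA 4 ligands were called with the neuron marker split as a covariate, 6 within the libraries high in neuron markers and 3 within the low ones, and over all genes the 1692 calls became 1992, 2310 and 573. The causes were not tested.

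Values that changed sign were small. Under total-count scaling Ccl6 with tau fibrils was -0.02 and the tau-fibril minus IkbkbCA difference of Ccl2 -0.01, and with limma-voom the IkbkbCA minus Ikbkb-/- difference of Ccl4 was -0.01. In PS19 microglia Ccl12 was 0.01 with age as a covariate and 0.03 against NTG mice of the same age, and Cx3cr1 0.02 with TMM over all 34 libraries and 0.01 without the filter. On leaving out 1 library, Ccl2 ranged from -0.08 to 0.63 with tau fibrils, from -0.70 to 0.05 in PS19 and from -0.10 to 0.23 in IkbkbCA, where it was -0.16 within the libraries low in neuron markers. In PS19 Ccl7 ranged from -0.30 to 0.43, Ccl12 from -0.36 to 0.18 and Cx3cr1 from -0.18 to 0.06. The IkbkbCA minus Ikbkb-/- difference ranged from -0.20 to 0.07 for Ccl3, -0.15 to 0.24 for Ccl4 and -0.21 to 0.79 for Ccl8, and the tau-fibril minus IkbkbCA difference of Ccl2 from -0.22 to 0.50. The comparison with NTG mice of the same age, that without the 2 libraries high in oligodendrocyte markers and those by neuron markers were chosen after seeing the data. No paired analysis was possible because the labels give no replicate numbers, and those used here only name libraries in accession order. Depth limits Ccl22 in all cultures and Ccl8 and Ccl12 in the tau experiment, where single reads set the values.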
